A study of Mus musculus with 2 samples.

Results

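The 35 genes described here encode the autophagy machinery, the proteins that build an autophagosome and load it with cargo. They were listed by name for their place in the pathway, with earlier results of these data known, out of 32448 genes on the array, and 34 of them were detected in both conditions, which here means a signal well above background by the scanner software's flag. Their RNA was measured in bone marrow-derived macrophages (BMDMs), which are macrophages grown from mouse marrow in the growth factor M-CSF. Untreated BMDMs were compared with BMDMs given IL-4, a cytokine that drives macrophages toward the alternatively activated, M2-like state, and both labels carry a time of 18 h. Each condition was hybridised to 1 single-colour array, so no difference below has a replicate check and no p-value is given.

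Both cultures came from 8-week-old male mice that carry floxed alleles of Crif1, a mitochondrial ribosome factor, and no Cre is named for the array. The labels state neither the IL-4 dose on the array nor how many mice went into a culture. All 6 genes fixed as markers of the IL-4 response were at least 1.5-fold higher on the IL-4 array, and Arg1, which encodes arginase, had a log2 difference of 7.76. All 7 macrophage markers found on the array were detected in both conditions, 5 of them at least 1.5-fold lower after IL-4. Itgam was among the 5 by its brightest probe, at -0.71, while its other probes gave -0.27 and -0.24. RNA of genes used as markers of other cell types was also present. All 6 fibroblast markers were detected in both conditions, with a summed intensity of 324153 without and 317280 with IL-4, and so were all 7 neutrophil markers found, with 39356 and 37586. Most of these sums came from Col1a2 and S100a9. By log2 difference the fibroblast markers ranged from -0.34 to 0.52, with 0 at least 1.5-fold changed. The neutrophil markers ranged from -0.80 to 0.30, and 2 of them, Ngp and Camp, were at least 1.5-fold lower with IL-4. Of the defining markers of other types, 1 of 6 for T and B lymphocytes, 3 of 4 for eosinophils, 1 of 5 for dendritic cells, 1 of 5 for mast cells and basophils and 0 of 5 for erythroid cells were detected in both conditions. Cpa3 and Cma1, markers of mast cells and basophils, were detected on the untreated array alone. With Mcpt8 they made 3 markers of these cells at least 1.5-fold lower with IL-4, and the summed intensity was 319 without and 134 with it. Cpa3, Cma1 and Mcpt8 were dim, at 91.2, 44.9 and 170 without IL-4, and Fcer1a and Ms4a2 were detected on neither array. The part of such cells in the differences below was not tested, and in a bulk culture fewer cells of a type and less RNA per cell cannot be told apart.

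Autophagy is the route by which a cell encloses its own cytoplasm, damaged organelles or microbes in a double membrane and delivers them to the lysosome. The ULK1 kinase complex starts the process, a class III PI3-kinase complex marks the growing membrane with the lipid PI3P, and ubiquitin-like conjugation reactions attach ATG8 proteins such as LC3 to that membrane, where cargo receptors dock. In macrophages the same proteins serve in clearing microbes and in the turnover of mitochondria, and some of them also act in LC3-associated phagocytosis.

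Levels are given as background-subtracted intensity in arbitrary units, untreated first, from the brightest probe of each gene. A difference is the log2 intensity with IL-4 minus that without, after each array was scaled by its 75th percentile, and a change called here is one of at least 1.5-fold. Because that percentile lay 0.0996 higher on the IL-4 array, a gene with equal intensities on both arrays has a slightly negative difference. The error quoted, the spot SD, is the SD of the difference between spots. For each gene it is the median over probes of like signal among 250 that were printed in 10 spots each. The spread between cultures is not part of it, nor is the scanner software's own error. That error was 10% (Gabarap) to 11.6% (Atg2b) of the untreated intensity over the detected autophagy genes. The spot SD ranged from 0.039, read from 3 probes for Gabarap, to 0.111 over the autophagy genes.

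Most of the autophagy machinery differed little between the conditions, as did most genes detected on both arrays. Of the 34 genes measured, 1 was at least 1.5-fold higher with IL-4, Atg16l1, and 0 were at least 1.5-fold lower, while 6.11% of the 19743 genes detected on at least 1 array were higher and 11.0% were lower by that much. Among the 17242 genes detected on both arrays these shares were 4.68% and 5.60%. At 2-fold, 0 autophagy genes were called in either direction. Of the 19743 genes detected on at least 1 array, 2.86% were higher and 4.47% lower by that much. The median difference of the 34 genes was -0.13 and that of all genes was -0.01, with 25 of the 34 below the median of all genes. Their differences had an SD of 0.245, against 0.432 over all genes. The interquartile range, which extreme values do not widen, was closer, 0.290 against 0.338. Within 0.3 of 0 lay 23 of the 34, and 71.2% of all genes. These counts describe 1 pair of arrays. In a list of 34 genes, 1 and 0 called at 1.5-fold lie near the shares over genes detected on both arrays. These calls are therefore no result about the list, and no test against other lists was run.

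**Figure D1:**
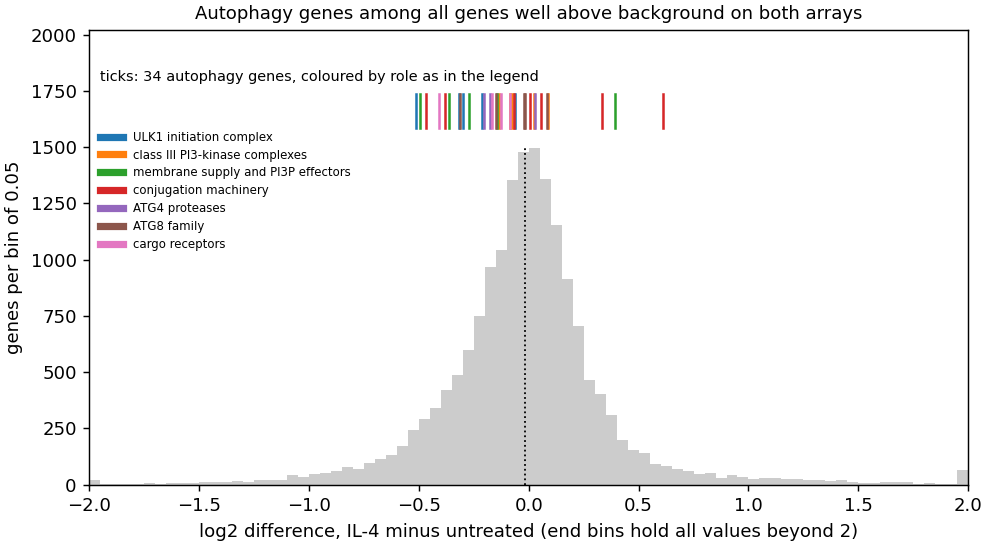
Histogram of the log2 difference, IL-4 minus untreated after 75th percentile scaling, of all 17242 genes detected on both arrays (vertical axis, genes per bin), with a tick for each of 34 autophagy genes coloured by role and a dotted line at the median of all genes. The ticks run from -0.51 to 0.61, the last with 4.44% of all genes above it, and 25 of them lie left of the dotted line.

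Under 7 ways of scaling the arrays the median of all genes ran from -0.07 to 0.31, so the sign of a small difference is set by the scaling. The sign held under all 7 for 12 of the 34 genes. Ulk1, Atg9a, Atg2a, Atg7, Atg16l2 and Nbr1 were lower with IL-4 under every scaling, and Becn1, Atg2b, Atg3, Atg10, Atg16l1 and Gabarapl1 were higher. Of these 12, Becn1, Atg10 and Gabarapl1 had differences of only 1.54, 0.84 and 1.90 times their spot SD. A held sign does not set these 3 small values clear of the spot error. For the other 22 genes the sign turned under at least 1 scaling, and their values below are to be read against the median of all genes. Relative to that median 25 genes were below it under all 7 scalings, 8 were above it under all 7, and Atg12 changed sides. A scaling that shifts a whole array by a constant cannot change a gene's side of that median. Only quantile normalization and cyclic loess could, and Atg12 changed sides under both. The same limit holds wherever a side of that median is given below for each scaling.

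**Figure D2:**
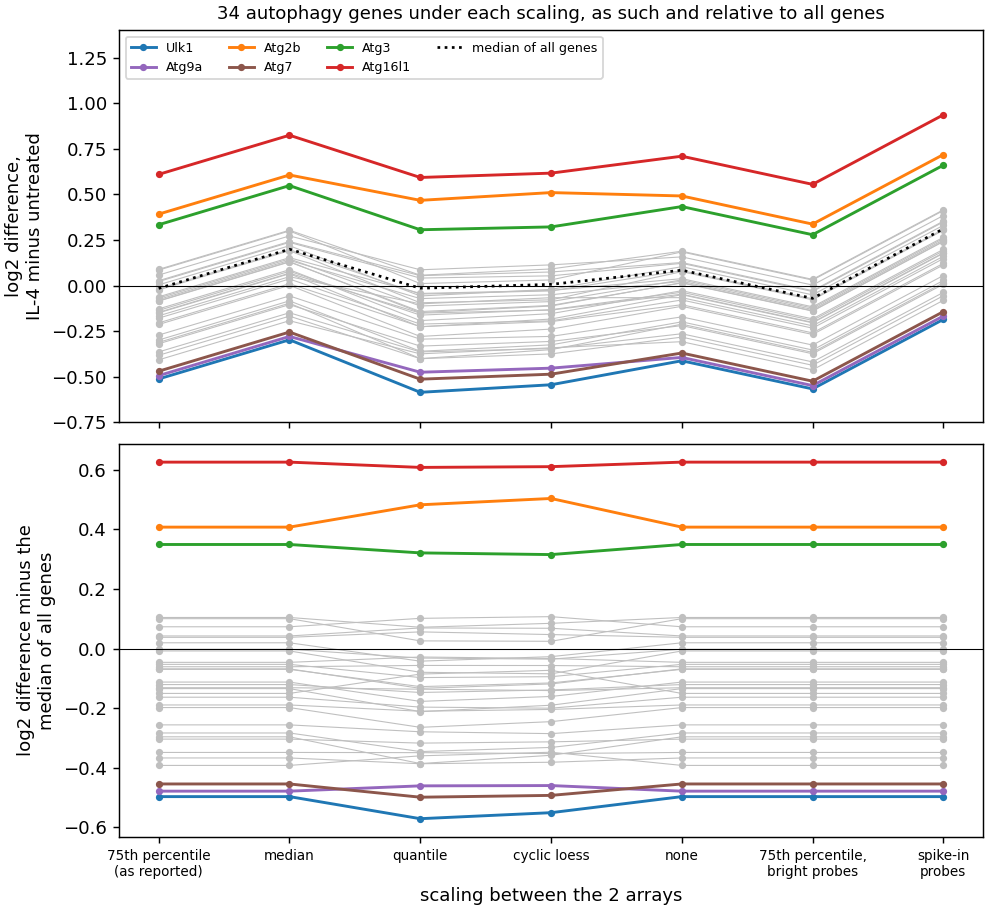
Log2 difference of the 34 autophagy genes (vertical axis) under 7 scalings between the arrays (horizontal axis), as such in the upper panel and relative to the median of all genes in the lower. The 6 coloured genes keep their side of 0 in both panels, whereas many grey genes cross 0 in the upper panel under median or spike-in scaling. In the lower panel only quantile normalization and cyclic loess can move a gene, because the other scalings shift all genes by a constant.

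The ULK1 initiation complex had a median difference of -0.30. All 5 of its genes lay below the median of all genes under each scaling, although only Ulk1 also had a negative sign under each. Ulk1, the kinase that starts autophagosome formation, had an intensity of 8257 without IL-4 and 6207 with it. Its difference was -0.51 with a spot SD of 0.048, which is 1.43-fold lower and the lowest value among the autophagy genes. Of all genes, 92.6% had a higher difference. Ulk2, the related kinase, went from 1060 to 911, a difference of -0.32, and its second, dimmer probe gave -0.55, the widest gap between probes of an autophagy gene. The other subunits are scaffolds and adaptors of these kinases. Atg101 had intensities of 5295 and 4614 and a difference of -0.30, and Atg13, the scaffold that binds ATG101, had 4743 and 4385 and -0.21. Rb1cc1, which encodes the large scaffold FIP200, had 597 and 613 and a difference of -0.06, equal to its spot SD of 0.061.

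**Figure D3:**
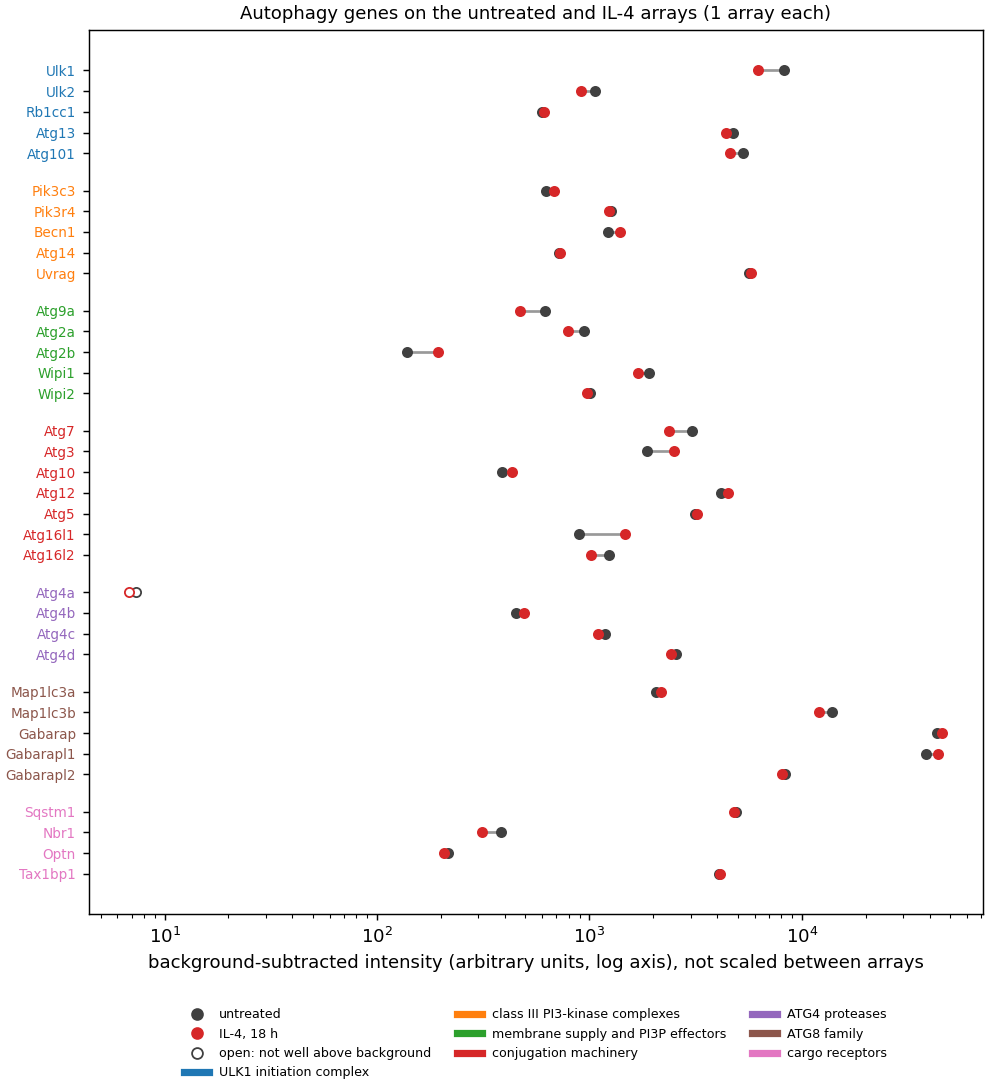
Background-subtracted intensity of each autophagy gene (log axis, arbitrary units, not scaled between arrays) on the untreated and the IL-4 array, 1 array each, grouped by role and to be compared within a gene only. Atg16l1 shows the widest gap among the filled points, from 898 to 1468, and the open points of Atg4a mark a signal not well above background.

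The genes of the class III PI3-kinase complexes ranged from -0.14 to 0.09. Pik3c3, which encodes the lipid kinase VPS34, had intensities of 624 and 679 and a difference of 0.02, and its other probe gave -0.09, the only case of opposite signs among the 11 autophagy genes with 2 probes. Under background correction by normexp the difference of Pik3c3 was -0.16, below the median of all genes, which was then -0.05. Becn1, which encodes the scaffold Beclin 1, had 1220 and 1390 and a difference of 0.09. Atg14 directs the complex to autophagosome formation and Uvrag to a complex of the endosomal route. Atg14 had intensities of 719 and 731 and a difference of -0.08. Uvrag had intensities of 5669 and 5735 and a difference of -0.08. Pik3r4 encodes VPS15, the regulatory subunit of VPS34, and its probe was printed in 10 spots. These ranged from 1226 to 1302 without IL-4, with a median of 1259, and from 1085 to 1301 with it, with a median of 1253, so the spots of the arrays overlapped. The mean difference was -0.14 with an SD of 0.067 over the spots, and 10 of 10 spots were lower after scaling but 5 of 10 before it.

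**Figure D4:**
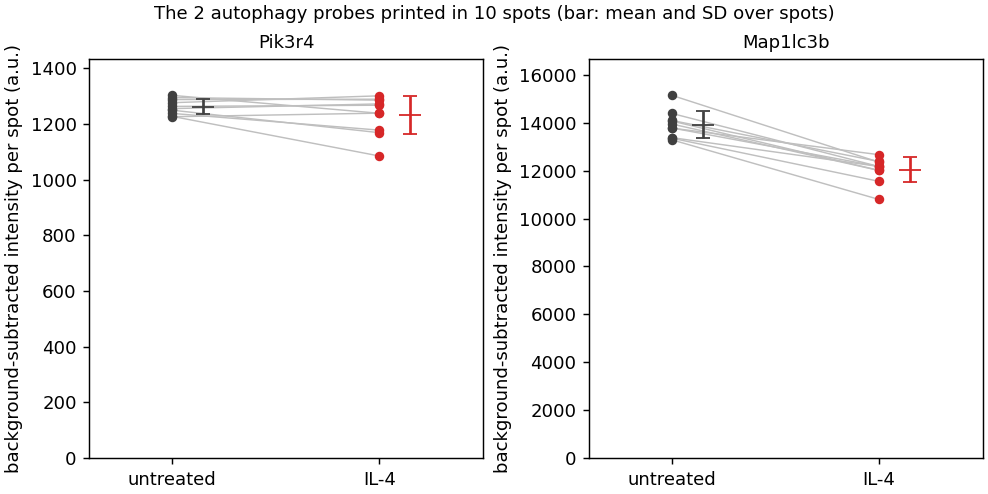
Background-subtracted intensity of each of the 10 spots of the Pik3r4 and Map1lc3b probes (arbitrary units, not scaled) on the 2 arrays, with lines joining the same spot position and bars for the mean and SD over spots. For Pik3r4 the arrays overlap, and for Map1lc3b every IL-4 spot, at most 12667, is below every untreated spot, at least 13287. Spots of 1 array share 1 labelled RNA and are not replicates of the condition.

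The genes for membrane supply and PI3P effectors spread more widely, from -0.49 to 0.39. Atg9a, the scramblase whose vesicles seed the new membrane, had an intensity of 618 without and 471 with IL-4. Its difference of -0.49, with a spot SD of 0.063, was a 1.41-fold lower level. The lipid transfer paralogs Atg2a and Atg2b, whose proteins bring lipid to the growing membrane, moved apart. Atg2a had intensities of 947 and 789 and a difference of -0.36, and Atg2b had 138 and 195 and 0.39 with the largest spot SD of the list, 0.111. The difference of Atg2b exceeded that of Atg2a by 0.76, a 1.69-fold change in their ratio with a spot error of 0.127, and a constant scaling factor cancels in this value. Under background correction by normexp the difference of the dim Atg2b probe was 0.16, so its size depends on the correction of the background. Wipi1, which binds PI3P, had intensities of 1907 and 1694 and a difference of -0.27, while its dimmer probe gave -0.10. Wipi2, the PI3P effector that recruits ATG16L1, had 1010 and 978 and -0.15.

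The conjugation machinery held the widest range of any role, from -0.47 to 0.61, with a median of 0.00. Atg16l1, whose protein carries the ATG12-ATG5 conjugate to the membrane, had an intensity of 898 without IL-4 and 1468 with it. Its difference of 0.61, with a spot SD of 0.058, was 1.53-fold and the highest of the list, and 4.44% of all genes had a higher one. It passed 1.5-fold narrowly, and it was 0.56, below that fold, when the 75th percentile was taken over bright probes only. Atg16l2, a paralog of Atg16l1, went the other way. Its intensities were 1238 and 1018 and its difference -0.38, and its dimmer probe gave -0.53. The ratio of Atg16l1 to Atg16l2 was 1.99-fold higher with IL-4, 0.99 on the log2 scale with a spot error of 0.082. That was the widest gap of the 10 pairs of related genes compared. The pairs were not part of the planned results, and each was set with the gene of the higher difference first. The gaps therefore describe these values only and were not tested.

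The enzymes that act on LC3 also moved apart. Atg7, the E1-like enzyme that activates both ATG12 and LC3, had an intensity of 3053 without and 2363 with IL-4, a difference of -0.47 with a spot SD of 0.052, and its dimmer probe gave -0.44. Atg3, the E2-like enzyme that takes LC3 from ATG7, had 1862 and 2515 and a difference of 0.33 with a spot SD of 0.053. The difference of Atg3 exceeded that of Atg7 by 0.80, or 1.74-fold, with a spot error of 0.075. The genes of the ATG12 branch stayed near the median of all genes. Atg10, the E2-like enzyme for ATG12, had intensities of 388 and 433 and a difference of 0.06. Atg12 itself had 4187 and 4500 and a difference of 0.00, and its dimmer probe gave 0.12. Atg5, the acceptor of ATG12, had 3148 and 3218 and -0.07.

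**Figure D5:**
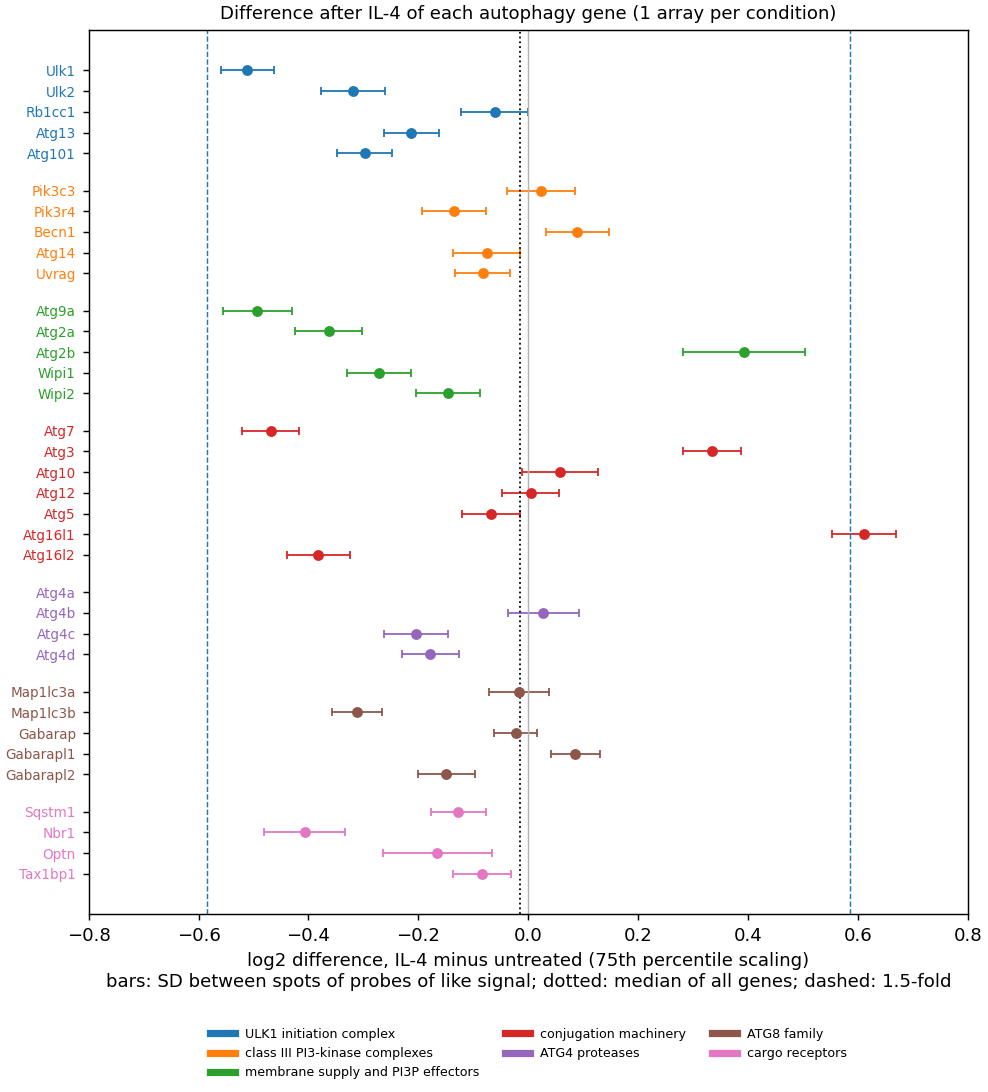
Log2 difference, IL-4 minus untreated after 75th percentile scaling, of each autophagy gene by role (1 array per condition), with bars for the SD between spots of probes of like signal, a dotted line at the median of all genes and dashed lines at 1.5-fold. Atg16l1 at 0.61 is the only point past a dashed line, and all genes of the ULK1 complex and all cargo receptors lie left of the dotted line. Atg4a has no point.

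Promoter sequence was read for 29 of the 35 genes from a RefSeq-based table of build GRCm38.p6, in a window from 250 bases before to 50 bases after the annotated start. Rb1cc1, Pik3c3, Becn1, Atg12, Atg16l1 and Map1lc3a were not in it. On both strands, 4 of 29 windows (13.8%) held the E-box CACGTG, bound by TFEB and related factors, against 8.09% of 27025 genes. The longer CLEAR core TCACGTGA, which contains the E-box, stood in 1 window (3.45%), that of Atg3, against 1.12% of genes. Among the conjugation genes Atg3, Atg7 and Atg5 held an E-box and had differences of 0.33, -0.47 and -0.07. Their 250 bases before the start are shown because they are the conjugation genes with this motif. The windows lie at chr16:45158579-45158828, chr6:114670846-114671095 and chr10:44268089-44268338, all on the plus strand. Each is written 5′ to 3′ in the direction of the gene with the E-box in capitals.
Atg3: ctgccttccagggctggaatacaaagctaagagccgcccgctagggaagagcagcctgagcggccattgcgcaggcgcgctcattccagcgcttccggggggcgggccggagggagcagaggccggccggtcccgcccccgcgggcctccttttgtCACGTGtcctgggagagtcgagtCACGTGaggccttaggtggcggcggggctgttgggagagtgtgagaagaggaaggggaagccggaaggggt
Atg7: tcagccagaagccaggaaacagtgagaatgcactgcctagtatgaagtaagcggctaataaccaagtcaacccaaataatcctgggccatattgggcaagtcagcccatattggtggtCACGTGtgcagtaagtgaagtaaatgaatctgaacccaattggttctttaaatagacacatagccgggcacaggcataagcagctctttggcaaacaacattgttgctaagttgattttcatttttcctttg
Atg5: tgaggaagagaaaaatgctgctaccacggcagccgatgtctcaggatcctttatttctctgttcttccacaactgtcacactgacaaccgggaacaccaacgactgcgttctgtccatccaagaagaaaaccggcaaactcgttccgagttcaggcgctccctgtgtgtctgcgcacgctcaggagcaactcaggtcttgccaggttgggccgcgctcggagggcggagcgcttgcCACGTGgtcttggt
Counted from the start, the E-box began at -94 and -71 in Atg3, the latter within the CLEAR core, at -132 in Atg7 and at -14 in Atg5. Atg14 held an E-box that began at -1. An antioxidant response element, TGACNNNGC, stood in the windows of Atg13, Map1lc3b, Tax1bp1 and Ulk2, 13.8% of the 29 against 14.0% of genes. A STAT6-type motif, TTC and GAA with 4 bases between them, was found in Gabarap alone, 3.45% against 8.01% of genes. A match describes letters in a window, not a bound site.

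The ATG4 proteases cut ATG8 proteins before conjugation and release them from the membrane afterwards. Atg4a alone of the 35 genes was not well above background, with intensities of 7.34 and 6.82, so no difference is given for it. Atg4b had intensities of 453 and 494 and a difference of 0.03. Atg4c had 1184 and 1101 and -0.20, and its dimmer probe gave -0.39. Atg4d had 2561 and 2425 and -0.18. Atg4c and Atg4d lay below the median of all genes under all 7 scalings and Atg4b above it, while the sign of each turned with the scaling.

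The ATG8 family, the ubiquitin-like proteins that are attached to the membrane lipid, had a median difference of -0.02, and its 5 genes ranged from -0.31 to 0.09. Map1lc3b, which encodes LC3B, the usual marker of autophagosomes, was read from 10 spots. These ranged from 13287 to 15146 without IL-4, with a median of 13866, and from 10796 to 12667 with it, with a median of 12172. Every spot was lower on the IL-4 array, before and after scaling, and the spots of the arrays did not overlap. The mean difference was -0.31 with an SD of 0.059 over the spots, 1.24-fold lower, and it came to 0.02 under spike-in scaling. Map1lc3a, which encodes LC3A, had intensities of 2053 and 2173 and a difference of -0.02, which exceeded that of Map1lc3b by 0.29 with a spot error of 0.071. The GABARAP subfamily acts late in the growth and closure of the autophagosome. Gabarap had intensities of 43312 and 45673 and a difference of -0.02. Gabarapl1 had 38339 and 43579 and 0.09, and Gabarapl2 had 8341 and 8059 and -0.15. The gap between the last pair was 0.23 with a spot error of 0.068.

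The cargo receptors link ubiquitinated cargo to ATG8 proteins, and all 4 of their genes lay below the median of all genes under each scaling. Nbr1, a receptor for protein aggregates and peroxisomes, had an intensity of 385 without and 311 with IL-4, a difference of -0.41 with a spot SD of 0.074, and alone among them kept its sign under each scaling. Sqstm1, which encodes p62, had 4904 and 4810 and a difference of -0.13. Optn, which encodes optineurin, had 216 and 206 and -0.17 with a spot SD of 0.0996. Tax1bp1, a receptor related to NDP52, had 4071 and 4113 and -0.08.

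Probes of the same gene were compared as a check on single values. Of the 11 autophagy genes with 2 probes, 10 had the same sign on both, 5 had a gap under 0.1, and the median gap was 0.110, wider than the median spot SD of 0.058. Neighbours in the order of differences that lie closer than this do not differ beyond the spread between probes.

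Other genes of the pathway were counted by lists drawn up by function, also with earlier results known. Of 59 such genes, 56 were detected on both arrays, Rragd on the untreated array alone and Atg9b and Foxo3 on neither. Of the 59, 3 were at least 1.5-fold higher with IL-4 and 5 at least 1.5-fold lower, near the 6.11% and 11.0% of all genes, so these counts are no result about the lists. The median difference of the 56 was -0.01, as for all genes. The 3 higher genes were Mitf, Nrbf2 and Vmp1. Mitf, a transcription factor of the TFEB family, had intensities of 5989 and 14391, a difference of 1.17, and 0.98 on its other probe. Its relatives Tfeb and Tfe3 had 0.18 and 0.17. Nrbf2, a factor of the PI3-kinase complexes, had 1973 and 3816 and a difference of 0.85, while the 5 genes of the PI3-kinase complexes lay between -0.14 and 0.09. Vmp1, an endoplasmic reticulum protein needed for autophagosome formation, had 11581 and 18657 and 0.59.

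The 5 lower genes came from 3 of the lists. Retreg1, an ER-phagy receptor, had intensities of 671 and 330 and a difference of -1.12. Trp53inp2, which binds ATG8 proteins, had 11640 and 7908 and -0.66. The genes of nutrient sensing upstream of ULK1 were Tsc2, Sesn1 and Rragd. Tsc2, a brake on the kinase mTORC1, had 131 and 62.5 and -1.17, from 1 dim probe with a spot SD of 0.164. Sesn1, a sestrin that restrains mTORC1, had 6698 and 4079 and -0.82. Rragd, a Rag GTPase that recruits mTORC1 to the lysosome, was also dim. It was detected on the untreated array alone, at 81.6, and was at least 3.14-fold lower with IL-4. Among the 10 genes of fusion with the lysosome 0 were called, and the widest difference was -0.49, for Tecpr1. The mitophagy receptors had a median of -0.04.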

How the data were processed

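For each array the authors deposited what Feature Extraction 10.10.1.1 wrote, an intensity per spot that is background-subtracted and not scaled between arrays. RNA (500 ng) had been labelled with Cy3. A further table that the authors deposited holds processed log2 values, whose baseline is not given in the sources used here. Its column medians were 0.161 untreated and 0.0160 with IL-4, and for 46 of 46 autophagy probes its difference, less a constant of -0.099, came within 0.01 of the scanner's.

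Control and outlier spots were left out, spots of the same probe were averaged on the log2 scale, and each of 39424 probes was expressed relative to its array's 75th percentile. Of each array's gene spots, 59.8% (untreated) and 57.4% (IL-4) were well above background and 0 were saturated. A probe counted as well above background when most of its spots did. Probes were named through RefSeq accessions (27229 probes, 20656 symbols, table of GRCm38.p6), and the brightest probe stood for a gene. With 1 array per condition the number of arrays limits the precision, and no test was run. Genes at least 1.5-fold changed were counted, and for a gene well above background on 1 array the fold is a bound. All 35 autophagy genes are named, as are other pathway genes at least 1.5-fold changed or the largest in their list, apart from an item not reported here. Members, lists, motifs and pairs of related genes were chosen with earlier results of these data known. Alternatives were 6 other scalings, normexp with an offset of 50 on the median pixel intensity, other probe rules, other filters, the authors' log2 table and a cutoff of 2-fold. Simulated data with known changes were used to test the counting. Python 3.11.15, numpy 2.4.6, pandas 2.3.3, matplotlib 3.10.9, R 4.3.3 and limma 3.58.1 were used.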

Additional observations from a re-analysis of the deposited data

How the results depend on the processing

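The count of autophagy genes at least 1.5-fold lower was 0 under each alternative run. The count at least 1.5-fold higher was 2 with median scaling, 3 with scaling on 8 spike-in control probes, 0 with the 75th percentile taken over detected probes and 0 at a cutoff of 2-fold, and 1 otherwise. The median difference was -0.13 as reported, 0.083 with median scaling, -0.032 without scaling and 0.195 with spike-in scaling. These scalings moved all genes together: the median of all genes was 0.20, 0.08 and 0.31, and the autophagy median lay -0.13 to -0.12 from it under the 6 other scalings, -0.086 under normexp and -0.071 with the dimmest probe of each gene. Of 442 recomputed differences of single genes, 289 moved by less than the spot SD and 153 by more. The 289 include alternatives that could not move these genes, such as the filters on dim probes. Atg16l1 was the only called gene, and its sign held in each alternative. Of all 34 genes, 22 turned sign under at least 1 scaling. Under normexp 23 of 34 genes lay below the median of all genes, against 25. No paired analysis was possible because the design holds 1 array per condition. A gene with a signal near background, such as Atg2b or Optn, has the widest spot SD.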
